A study of Mus musculus with 9 samples.

Results

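The genes described here carry bile acids through the hepatocyte: the ligase and transferase that conjugate them, the carriers that take them up from blood, and the pumps that send them into bile or back to blood. They were chosen by name, with earlier results of these data known, as 8 of the 24419 gene symbols in the deposited count table. The 8 are Slc27a5, Baat, Slc10a1, Slco1b2, Slco1a1, Abcb11, Abcb4 and Slc51b. RNA from the liver of 9 male FVB mice on a normal diet had been sequenced, 3 libraries per group. CTRL mice were 13, 13 and 17 weeks old, and their labels name no injection. The series' design text describes a control injected with unmutated NFE2L2 and T41A beta-catenin, normal at 14 weeks after injection at 6 to 8 weeks of age, which is older than these CTRL mice, so what they received is not certain. MODEL1 mice, each 18 weeks old, carried NFE2L2 G31A with CTNNB1 T41A. MODEL2 mice, 19, 20 and 22 weeks old, carried NFE2L2 T80K with CTNNB1 T41A. By the design text both models developed hepatocellular carcinoma, MODEL1 sooner. Both had received 20 µg of each plasmid in 2 ml of saline by hydrodynamic tail vein injection, with a Sleeping Beauty transposase to insert the cargo into the genome. NFE2L2 encodes NRF2, the transcription factor of the antioxidant response, and CTNNB1 encodes beta-catenin, the effector of Wnt signalling. Hydrodynamic injection reaches a part of the hepatocytes, and the labels do not say whether a library came from tumour, from the liver around it or from both. The CTRL mice were the youngest, and the labels name no library with a change in only NFE2L2 or only CTNNB1. Genotype, age and injection therefore cannot be told apart in a comparison of either model with CTRL. Every MODEL2 mouse was also older than every MODEL1 mouse, so NFE2L2 variant and age cannot be told apart between the models.

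Bile acids are made from cholesterol in hepatocytes, and conjugation to taurine (mainly, in mice) or glycine keeps them soluble. Conjugated bile acids are pumped across the canalicular membrane into bile, reabsorbed in the ileum and taken up again from portal blood. The nuclear receptor FXR (Nr1h4) senses bile acids in hepatocytes and induces export genes, and its target SHP (Nr0b2) represses the first step of synthesis.

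Library totals ran from 219504 to 325177 counts, which is shallow, and a gene with 0 counts could still lie at up to 9.23 to 13.7 CPM (3 counts; CPM is the count as a share of the library total, in parts per 1000000). The 8 genes together held 105 to 247 counts per library. Albumin (Alb), the main secreted protein of hepatocytes, held only 0.0309% to 0.113% of counts. Of 23333 symbols matched to the annotation, 24.1% had an exon that overlaps an opposite-strand exon, and 78.8% of counts fell to them. The strand setting of the counting is not given in the sources used here, so reads from a gene and from transcripts opposite it cannot be told apart. Rn45s, the ribosomal RNA precursor, held 2.20% to 13.4% of counts and more than 8% in CTRL replicate 1 and MODEL1 replicates 1 and 3. The labels give each library its own title and do not mention pooling, and the p-values measure the spread between these libraries, part of which may be technical.

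Slc27a5 fell in both models, though the MODEL2 call was lost with age as a covariate. It fell more in MODEL1, a difference that did not pass under 5 of 19 alternatives. Slco1b2 rose in MODEL1, a call lost under 6 of 19 alternatives. Slc10a1, the most abundant of the 8 genes per exon length in the models, passed the test in no comparison. Only 4 of the 8 genes, Slc27a5, Slc10a1, Slco1b2 and Abcb4, had enough counts for edgeR's quasi-likelihood test, which was fitted over 2639 genes, and Slc51b had 0 counts in every library. In MODEL1 against CTRL 2 of the 4 tested members passed an adjusted p of 0.05, 1 lower and 1 higher, where 22.8% of all tested genes passed (11.9% higher and 11.0% lower). In MODEL2 against CTRL 1 of 4 passed, as lower, against 13.3% of all tested genes (8.30% higher and 4.96% lower). In MODEL2 against MODEL1 1 of 4 passed, as higher, against 7.28% (3.87% higher and 3.41% lower). Over all tested genes the median log2 fold change was 0.00, 0.00 and 0.01. Abcb4 passed the filter on low counts only with the libraries of the models: it was not tested in fits of CTRL with 1 model alone, nor without MODEL1 replicate 3. Slco1b2 had 3 and 2 counts in CTRL replicates 1 and 2, under the minimum of 10. The tested members were thus in part picked by their level in the models, and no median over them is given. As the list was chosen with earlier results of these data known, the shares of members that passed are a description only.

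**Figure D1:**
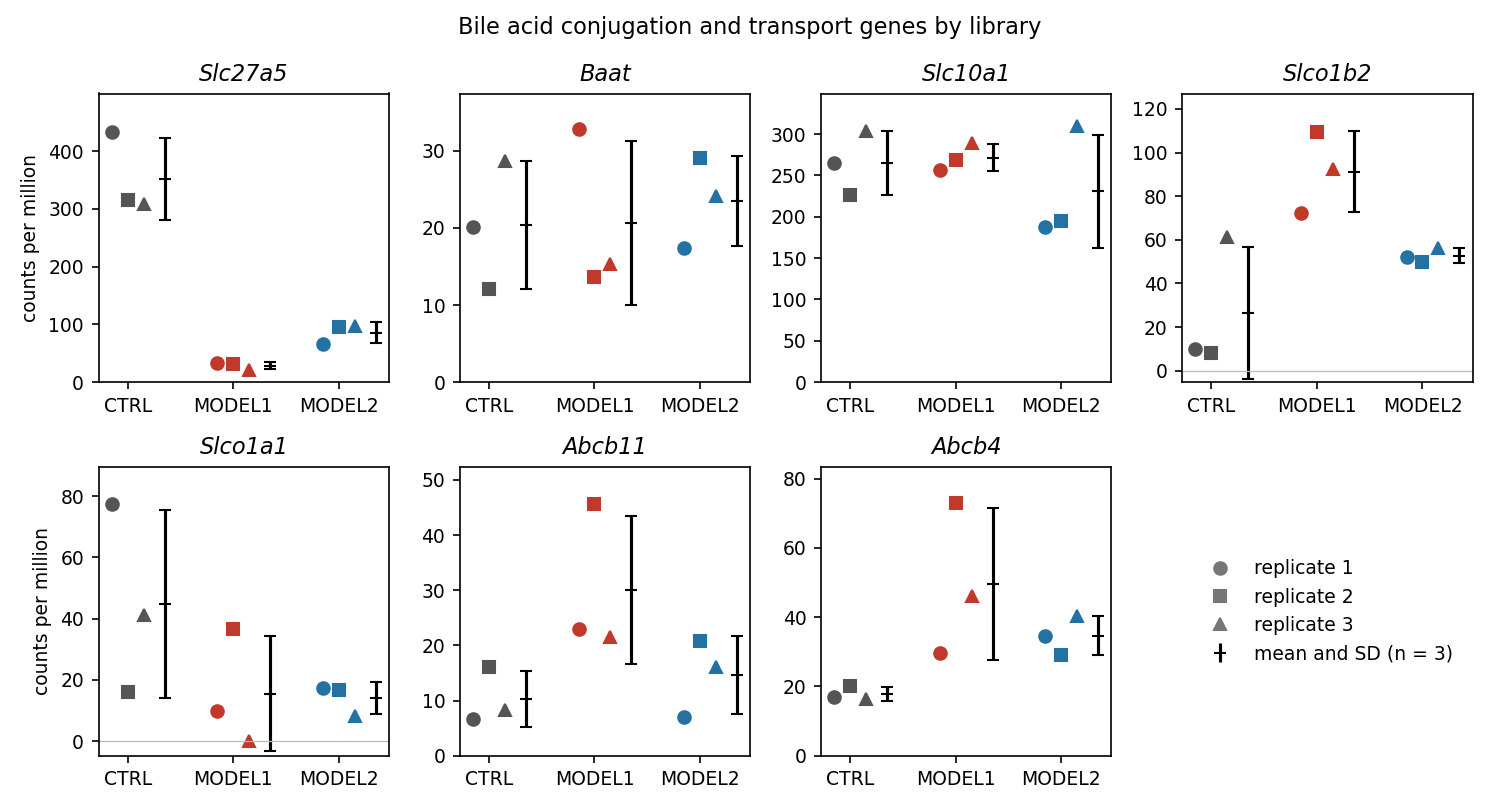
CPM in each library for the 7 bile acid genes that had counts, by group, with symbols for replicates 1 to 3 and bars for the mean and SD (n = 3). Slc27a5 lies between 308 and 434 CPM in CTRL and at or under 96.6 in every library of the models, while Slc10a1 lies between 187 and 310 CPM throughout.

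Slc27a5 encodes the bile acid coenzyme A ligase (also called BACS or FATP5), which activates bile acids so that they can be conjugated. It lies on mm10 chromosome 7, 12988346 to 12998192, minus strand (all positions given are mm10), and its 10 exon blocks span 2438 bases. It held 129, 78 and 75 counts in CTRL replicates 1 to 3, or 434, 315 and 308 CPM. In MODEL1 it held 10, 7 and 7 counts, or 32.9, 31.9 and 21.5 CPM, and in MODEL2 19, 23 and 24 counts, or 65.8, 95.4 and 96.6 CPM. The 3 groups did not overlap: every MODEL1 library lay under every MODEL2 library, and every MODEL2 library under every CTRL library. Of all tested genes, 35.2% showed no overlap in MODEL1 against CTRL, 30.8% in MODEL2 against CTRL and 26.3% between the models. The mean of Slc27a5 went from 352 ± 70.7 CPM in CTRL to 28.8 ± 6.29 in MODEL1 and 85.9 ± 17.4 in MODEL2 (SD, n = 3).

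The fall of Slc27a5 in MODEL1 was 13.5-fold, with a log2 fold change of -3.75 ± 0.36 (SE; edgeR adjusted p = 4.63e-08). The fall in MODEL2 was 4.49-fold, with a log2 fold change of -2.17 ± 0.31 (edgeR adjusted p = 3.74e-05). The models differed from each other, with Slc27a5 higher in MODEL2 by 1.59 ± 0.39 log2 units (edgeR adjusted p = 0.0146). The MODEL1 call held under each of the 19 alternatives, with log2 fold changes from -3.97 to -3.47 and adjusted p of at most 0.000286. With age as a covariate the log2 fold change in MODEL2 was -1.71 ± 0.65 and did not pass (adjusted p = 0.227). The difference between the models kept its direction but did not pass without MODEL1 replicate 2 (adjusted p = 0.0612), MODEL1 replicate 3 (0.0871), MODEL2 replicate 2 (0.0528) or MODEL2 replicate 3 (0.0592), nor without the 3 libraries rich in Rn45s (0.172).

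The level of Slc27a5 in CTRL replicate 3, at 17 weeks the control nearest in age to the models, was 308 CPM. The controls at 13 weeks were at 434 CPM (CTRL replicate 1) and 315 CPM (CTRL replicate 2). Against Alb or Slc10a1 counts, given below, CTRL replicate 3 was also the lowest control. No exon of another gene overlaps Slc27a5 on the opposite strand, and the nearest gene there, Trim28, a transcriptional corepressor, lies 921 bases away. Trim28 held 16 counts over the CTRL libraries, 22 over MODEL1 and 21 over MODEL2.

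Slc27a5 was also set against other hepatocyte genes of the same libraries, a description chosen after the values were seen. Alb itself had log2 fold changes of -0.99 ± 0.24 in MODEL1 (edgeR adjusted p = 0.00406) and -0.85 ± 0.24 in MODEL2 (adjusted p = 0.0199). The MODEL1 call for Alb was lost without the libraries rich in Rn45s (0.441) and with age in the fit (0.194), and the MODEL2 call under both (0.106 and 0.765), with library totals as the scale (0.0781) and without CTRL replicate 1 (0.12), MODEL2 replicate 2 (0.086) or MODEL2 replicate 3 (0.0995). Per 100 Alb counts, Slc27a5 had 38.3, 39.2 and 30.4 counts in CTRL, 10.6, 3.95 and 3.76 in MODEL1, and 10.2, 16.8 and 17.6 in MODEL2. Both models lay under CTRL on this scale, while they overlapped each other through MODEL1 replicate 1, which had the lowest Alb level of all libraries at 309 CPM. Per 100 counts of Slc10a1 the ratio was 163, 139 and 101 in CTRL, 12.8, 11.9 and 7.45 in MODEL1, and 35.2, 48.9 and 31.2 in MODEL2, and no groups overlapped. The 19 hepatocyte genes listed as markers summed to 3614 to 4613 CPM in CTRL, 2258 to 4036 in MODEL1 and 2736 to 3514 in MODEL2. Of the 15 tested, 6 fell and 1 rose in MODEL1, where 11.0% of all tested genes fell and 11.9% rose, and 3 fell in MODEL2, where 4.96% of all did. Their part in the fall of Slc27a5 was not tested, and in bulk liver fewer cells of a type and less RNA per cell cannot be told apart.

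**Figure D2:**
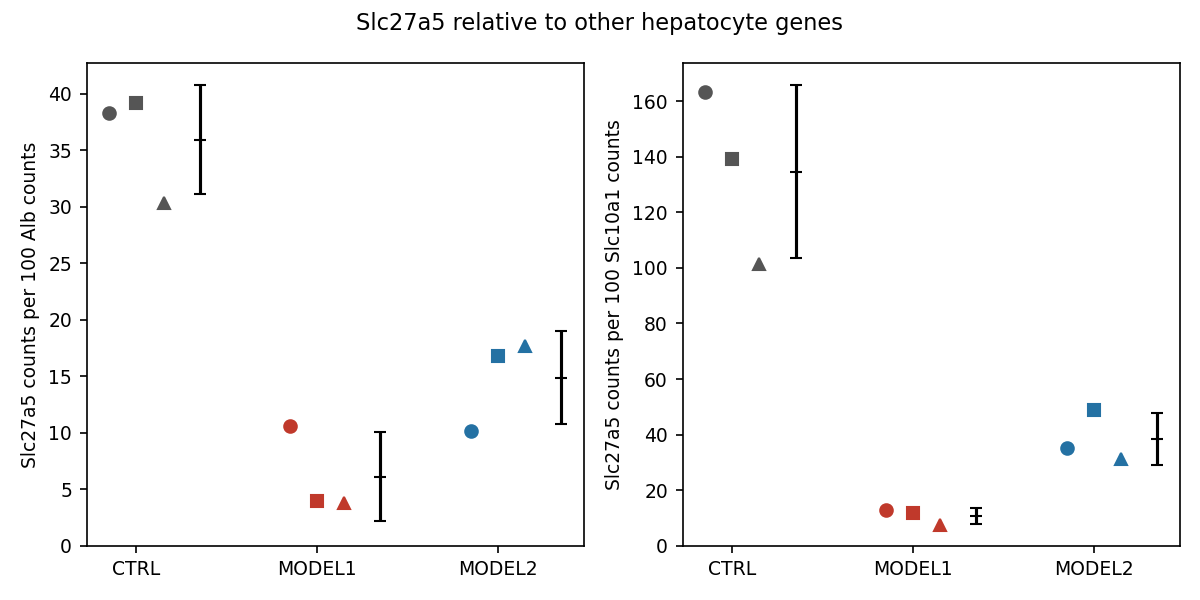
Counts of Slc27a5 per 100 counts of Alb (left) and per 100 counts of Slc10a1 (right) in each library, by group, with circles, squares and triangles for replicates 1 to 3 and bars for the mean and SD (n = 3). The CTRL libraries lie above all libraries of the models on both scales, and the models overlap only against Alb.

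Baat, the transferase that joins the activated bile acid to taurine or glycine, follows Slc27a5 in the same pathway. It lies on chromosome 4, 49489422 to 49506557. It held 6, 3 and 7 counts in CTRL, 10, 3 and 5 in MODEL1, and 5, 7 and 6 in MODEL2, and the groups overlapped. Baat did not pass the filter on low counts. Its ratio of scaled counts was 0.941 in MODEL1 (exact 95% interval 0.453 to 1.97) and 1.06 in MODEL2 (0.511 to 2.23) against CTRL, intervals that cover counting error only. Smaller changes than these bounds were not detectable at this depth.

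The uptake carriers did not move together. Slc10a1, the sodium-dependent taurocholate carrier NTCP, lies on chromosome 12, 80953183 to 80968705. It was measured at 266, 226 and 303 CPM in CTRL, 256, 269 and 289 in MODEL1, and 187, 195 and 310 in MODEL2. These groups overlapped, and MODEL2 replicate 3 was the highest of all 9 libraries. Its log2 fold change was -0.10 in MODEL1 (95% interval -0.63 to 0.43; edgeR adjusted p = 0.835), -0.32 in MODEL2 (-0.85 to 0.22; adjusted p = 0.48), and -0.22 between the models (-0.76 to 0.31; adjusted p = 0.702). A change of 2-fold in either direction lay outside all 3 intervals of this fit, but not under every alternative. In MODEL2 the log2 fold change was -0.80 ± 0.55 (SE) with age as a covariate and -0.55 ± 0.30 without MODEL2 replicate 3, neither of which passed (edgeR adjusted p = 0.593 and 0.297).

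Slco1b2 encodes OATP1B2, a sodium-independent carrier of bile acids and drugs, and lies on chromosome 6, 141629518 to 141686646, plus strand. It held 3, 2 and 15 counts in CTRL, or 10.1, 8.08 and 61.5 CPM. MODEL1 libraries held 22, 24 and 30 counts, or 72.3, 109 and 92.3 CPM, and MODEL2 libraries 15, 12 and 14 counts, or 52.0, 49.8 and 56.4 CPM. All MODEL1 libraries lay above all CTRL and all MODEL2 libraries, while CTRL replicate 3, the 17-week mouse, lay above every MODEL2 library. Over all tested genes 35.2% showed no overlap in MODEL1 against CTRL and 26.3% between the models. Slco1b2 rose in MODEL1 by 1.68 ± 0.54 log2 units (edgeR adjusted p = 0.0258). In MODEL2 its log2 fold change was 0.94 ± 0.57 (adjusted p = 0.317), and MODEL2 against MODEL1 gave -0.74 ± 0.49 (adjusted p = 0.433). The MODEL1 call rested on single libraries. It did not pass without CTRL replicate 1 (1.29 log2 units, adjusted p = 0.122), CTRL replicate 2 (1.30, 0.097), MODEL1 replicate 2 (1.63, 0.0691) or MODEL1 replicate 3 (1.68, 0.0658), nor with age as a covariate (0.60 ± 0.69, adjusted p = 0.686) or without the libraries rich in Rn45s (1.38, 0.314). Without CTRL replicate 3 it was 3.01 log2 units in MODEL1, and 2.29 log2 units in MODEL2, where it then passed (adjusted p = 0.0205).

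Slco1a1, the related carrier OATP1A1, which is male-biased in mouse liver, lies on the same chromosome on the minus strand, 141907282 to 141946962. It was measured at 77.3, 16.2 and 41.0 CPM in CTRL, on 37 counts, at 9.86, 36.4 and 0 CPM in MODEL1, on 11 counts, and at 17.3, 16.6 and 8.05 CPM in MODEL2, also on 11. The groups overlapped, and CTRL replicate 1 held 23 of the 37 CTRL counts. The ratio was 0.249 in MODEL1 (0.114 to 0.498) and 0.281 in MODEL2 (0.129 to 0.562) against CTRL. Without CTRL replicate 1 the ratios were 0.423 (0.174 to 1.00) and 0.477 (0.196 to 1.13). Without MODEL1 replicate 2 the ratio in MODEL1 was 0.0961 (0.0190 to 0.303), and without MODEL1 replicate 3 it was 0.407 (0.187 to 0.814). With no filter on low counts edgeR gave adjusted p of 0.141 in MODEL1 and 0.343 in MODEL2. Slco1a1 also passed the filter in some fits with fewer libraries: without MODEL1 replicate 2 edgeR's adjusted p in MODEL1 was 0.0427, and without the libraries rich in Rn45s, which include CTRL replicate 1, the log2 fold change was 0.07 ± 1.19 (adjusted p = 0.98). Over the other fits that tested Slco1a1 in MODEL1 against CTRL the adjusted p ran from 0.0667 to 0.36.

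Both canalicular exporters had their highest mean in MODEL1, where Abcb4 did not pass the test and Abcb11 did not pass the filter on low counts. Abcb4, the phospholipid floppase MDR3 (Mdr2 in mice), supplies the phosphatidylcholine that protects the bile duct lining from bile acids. It lies on chromosome 5, 8893717 to 8959231. It was measured at 16.8, 20.2 and 16.4 CPM in CTRL, 29.6, 72.9 and 46.1 in MODEL1, and 34.7, 29.0 and 40.3 in MODEL2. Every library of both models lay above every CTRL library, with 14 counts over the CTRL libraries, 40 over MODEL1 and 27 over MODEL2. No overlap with CTRL was seen for 35.2% of all tested genes in MODEL1 and 30.8% in MODEL2. The log2 fold change was 1.26 ± 0.57 in MODEL1 (edgeR adjusted p = 0.12) and 0.83 ± 0.59 in MODEL2 (adjusted p = 0.4).

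Abcb11, the bile salt export pump, is the main route of conjugated bile acids into bile and lies on chromosome 2, 69238282 to 69342616. It held 2, 4 and 2 counts in CTRL, 7, 10 and 7 in MODEL1, and 2, 5 and 4 in MODEL2. MODEL1 libraries, at 23.0, 45.6 and 21.5 CPM, lay above the CTRL libraries at 6.72, 16.2 and 8.20 CPM, and above MODEL2 at 6.93, 20.7 and 16.1 CPM. Of the tested genes, among which Abcb11 was not, 35.2% showed no overlap in MODEL1 against CTRL and 26.3% between the models. The gap between the models was narrow for Abcb11: 21.5 CPM on 7 counts in MODEL1 replicate 3 against 20.7 CPM on 5 counts in MODEL2 replicate 2. The ratio was 2.51 in MODEL1 (1.09 to 6.46) and 1.30 in MODEL2 (0.476 to 3.72) against CTRL. Without MODEL1 replicate 2 the MODEL1 ratio was 2.07 (0.812 to 5.71), without CTRL replicate 1 it was 2.15 (0.857 to 6.44), and without CTRL replicate 3 it was 2.18 (0.869 to 6.52). With no filter edgeR gave an adjusted p of 0.667 in MODEL1. Abcb11 shares 136 exon bases with the antisense gene Gm13613 and 19 with the pseudogene Gm13614, both on the opposite strand, whose counts were not used here.

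The stretches before the start sites of Slco1b2, Slco1a1 and Abcb11 are shown because nuclear receptors such as FXR, which is known to induce Abcb11, bind near such starts. They are the 250 bases before each start, from RefSeq on GRCm38.p6, 5′ to 3′ on the gene's strand: chr6:141629268-141629517 (plus strand) for Slco1b2, chr6:141946963-141947212 (minus strand) for Slco1a1 and chr2:69342617-69342866 (minus strand) for Abcb11. Capitals mark the nuclear receptor core AGGTCA, which reads TGACCT where it lies on the other strand.
Slco1b2: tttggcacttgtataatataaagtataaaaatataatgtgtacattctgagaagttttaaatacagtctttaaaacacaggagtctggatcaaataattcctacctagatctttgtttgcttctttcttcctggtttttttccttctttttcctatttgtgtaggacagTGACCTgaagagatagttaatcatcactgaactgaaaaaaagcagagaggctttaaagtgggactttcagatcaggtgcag
Slco1a1: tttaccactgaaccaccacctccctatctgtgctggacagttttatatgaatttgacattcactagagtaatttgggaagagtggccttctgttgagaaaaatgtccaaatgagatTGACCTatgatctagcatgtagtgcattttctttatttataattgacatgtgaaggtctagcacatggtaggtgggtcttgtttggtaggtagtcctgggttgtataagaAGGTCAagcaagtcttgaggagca
Abcb11: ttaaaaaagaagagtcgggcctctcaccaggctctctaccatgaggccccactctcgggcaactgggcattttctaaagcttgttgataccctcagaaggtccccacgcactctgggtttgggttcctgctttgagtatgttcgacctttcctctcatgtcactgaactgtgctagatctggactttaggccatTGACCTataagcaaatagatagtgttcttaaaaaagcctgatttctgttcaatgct
The core lies 81 to 76 bases before the start of Slco1b2, 134 to 129 and 24 to 19 bases before that of Slco1a1, and 56 to 51 bases before that of Abcb11. Searched on both strands, it was found in 5 of the 7 promoters that the RefSeq table holds for 6 of the members, Slc51b and 1 of the 2 of Slc10a1 included, and in 14.0% of the 32851 promoters of the table. The inverted repeat of this core with 1 base between its arms, which FXR binds, matched no member and 0.00609% of promoters. With its outer bases left out and the third base of the shortened left arm freed (GGNCANTGACC) it matched Slco1b2 and Abcb11 and 0.198% of promoters. The single core and this looser form were chosen after the sequences were seen, so their matches in these members are a description only. The antioxidant response core TGACNNNGC (10.2% of promoters) and the TCF/LEF element CTTTGAT (3.21%) had no match in these windows of the 6 members. A match is a string of letters and not a measured binding site. Slc27a5 and Baat had no entry.

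Slc51b, the beta subunit of the basolateral exporter that lets bile acids leave the hepatocyte toward blood, had 0 counts in all 9 libraries, which allows up to 9.23 to 13.7 CPM. It lies on chromosome 9, 65412714 to 65422955, and shares 91 exon bases with Rasl12, a small GTPase gene on the opposite strand. Rasl12 held 3 counts over the CTRL libraries, 50 over MODEL1 and 13 over MODEL2, a ratio of 13.9 in MODEL1 (4.50 to 69.9) and of 4.09 in MODEL2 (1.12 to 22.4) against CTRL. Of its 3 CTRL counts 2 were in CTRL replicate 2, and without that library the ratios were 29.5 (5.05 to 1187) and 8.65 (1.30 to 368), while without CTRL replicate 3 they were 9.09 (2.94 to 45.6) and 2.67 (0.733 to 14.6). Which of these genes the reads in the shared stretch came from cannot be told apart without the strand setting.

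**Figure D3:**
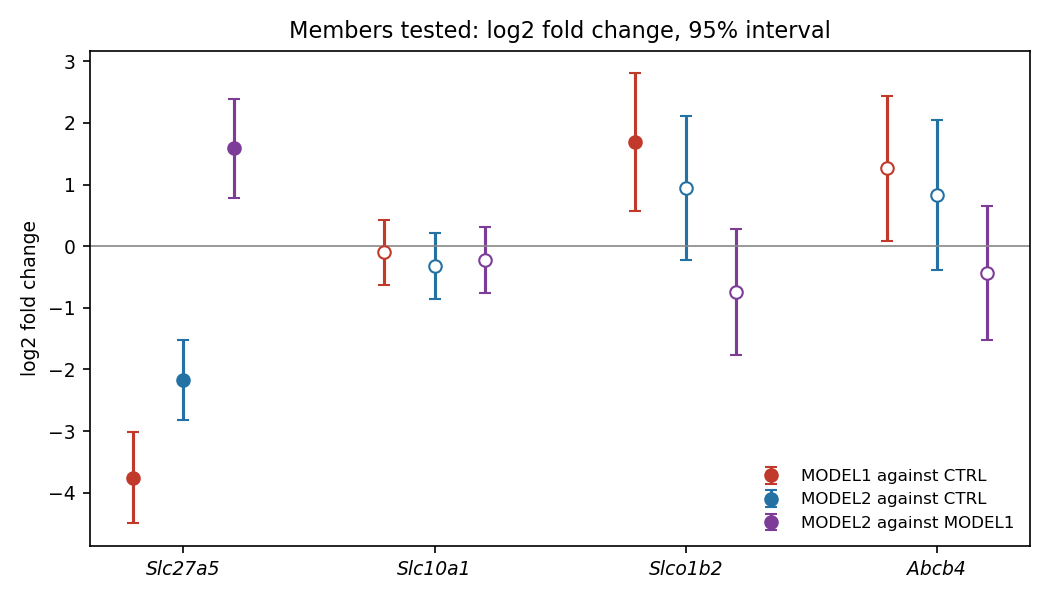
Log2 fold change (vertical axis) with its 95% interval for the 4 members tested by edgeR, in each of the 3 comparisons; filled points passed an adjusted p of 0.05 and open points did not. Slc27a5 is filled in all 3 comparisons and Slco1b2 in MODEL1 against CTRL alone, while the intervals of Slc10a1 lie around 0.

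Levels of different genes were compared per exon length, as CPM per kilobase. In CTRL the order was Slc27a5 at 144 ± 29.0, Slc10a1 at 121 ± 17.6, Baat at 10.5 ± 4.27, Slco1a1 at 8.49 ± 5.83, Slco1b2 at 5.39 ± 6.14, Abcb11 at 2.01 ± 0.986, Abcb4 at 1.90 ± 0.222 and Slc51b at 0 CPM per kilobase (SD, n = 3). Each gene with counts overlapped its neighbours in this order, except that Slc10a1 lay above Baat in every library. In MODEL1 the order was Slc10a1 at 123 ± 7.50, Slco1b2 at 18.5 ± 3.76, Slc27a5 at 11.8 ± 2.58, Baat at 10.6 ± 5.48, Abcb11 at 5.84 ± 2.62, Abcb4 at 5.28 ± 2.33 and Slco1a1 at 2.93 ± 3.57 CPM per kilobase. Here neighbours in the order overlapped except Slc10a1 with Slco1b2 and Slco1b2 with Slc27a5, and Slc27a5 overlapped Baat, which it had exceeded in every CTRL library. In MODEL2 Slc27a5 was second, at 35.2 ± 7.14 CPM per kilobase, between Slc10a1 at 105 ± 31.3 and Baat at 12.1 ± 3.03, with no overlap on either side. Slc27a5 made up 40.1% to 52.2% of the counts of the 8 genes in CTRL libraries, 4.43% to 7.19% in MODEL1 and 17.3% to 21.9% in MODEL2.

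**Figure D4:**
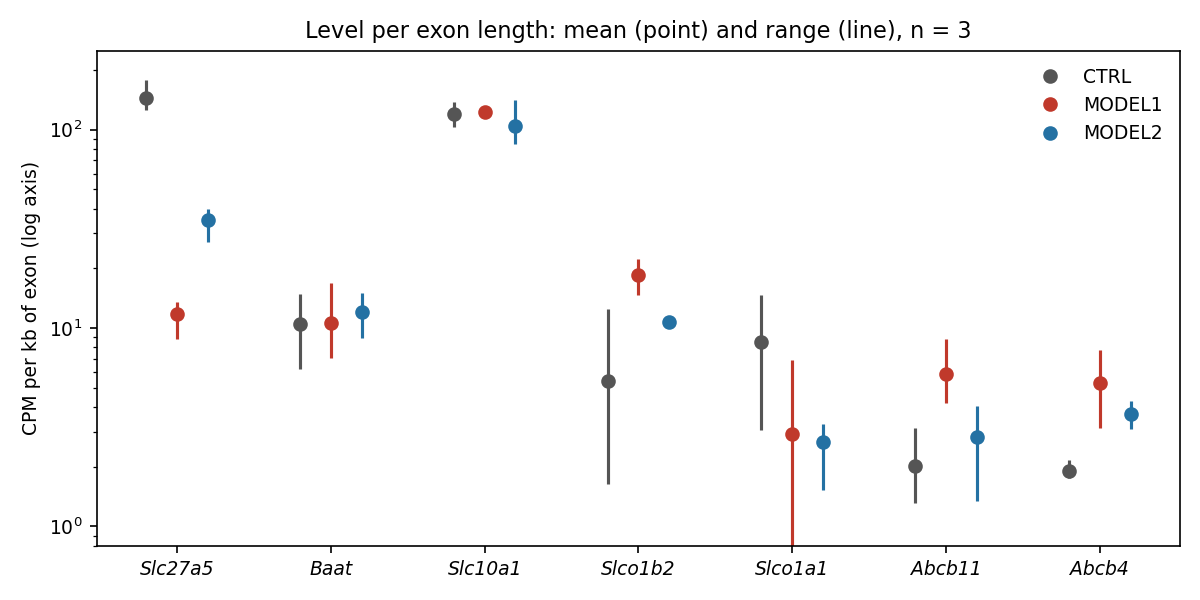
CPM per kilobase of exon on a log axis for the 7 members with counts, as the mean (point) and range (line) of 3 libraries in each group; the MODEL1 range of Slco1a1 runs down to 0, below the axis. Slc27a5 lies beside Slc10a1 in CTRL and beside Baat in MODEL1.

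The other genes of bile acid metabolism were read from lists of pathway genes. Of 16 synthesis genes 6 were tested, and 1 rose in MODEL1 (11.9% of all tested genes rose there), none in MODEL2. Akr1c6, a hydroxysteroid dehydrogenase, rose in MODEL1 by 2.06 ± 0.67 log2 units (edgeR adjusted p = 0.0283), though its libraries overlapped those of CTRL. It did not pass with age (adjusted p = 0.349), with the replicate number as a block (0.0636), or without CTRL replicate 2 (0.0812), CTRL replicate 3 (0.0503), MODEL1 replicate 2 (0.124) or MODEL1 replicate 3 (0.114). Cyp7a1, the rate-limiting enzyme of synthesis, ranged from 24.6 to 84.0 CPM in CTRL, 13.1 to 223 in MODEL1 and 58.0 to 72.8 in MODEL2, with log2 fold changes of 0.43 ± 0.59 and -0.13 ± 0.61. Akr1c6 held 15 counts over the CTRL libraries and 74 over MODEL1. The tested synthesis genes were thus in part picked by their level in the models, and no median over them is given.

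Of 14 regulators 4 were tested, and 2 fell in MODEL1 (11.0% of all tested genes fell there), none in MODEL2 (4.96%). Onecut1 (HNF6), a hepatocyte transcription factor, was at 134, 96.9 and 77.9 CPM in CTRL and at 6.57, 13.7 and 0 in MODEL1, a log2 fold change of -4.16 ± 0.77 (edgeR adjusted p = 0.000334). In MODEL2 it was at 121, 12.4 and 92.6 CPM, higher than in MODEL1 by 3.60 ± 0.79 log2 units (adjusted p = 0.00719), though MODEL2 replicate 2 overlapped MODEL1. Without the libraries rich in Rn45s neither difference passed (adjusted p = 0.0924 and 0.198), nor did that between the models without MODEL2 replicate 1 (0.0549). Prox1, a corepressor at Cyp7a1, fell by 1.33 ± 0.45 log2 units in MODEL1 (adjusted p = 0.0362), a call lost under 10 of 19 alternatives, among them leaving out CTRL replicate 1 (0.113), CTRL replicate 3 (0.0791), MODEL1 replicate 1 (0.123) or MODEL1 replicate 3 (0.0929).

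Of 20 other transport and binding genes 6 were tested, and in MODEL1 2 rose and 1 fell (11.9% and 11.0% of all tested genes), while in MODEL2 1 rose (8.30% of all). Abcc4, an NRF2-induced basolateral efflux pump that can carry bile acids, rose in both models (edgeR adjusted p = 1.35e-07 and 0.000101), from 1 count over the CTRL libraries to 181 over MODEL1 and 51 over MODEL2. The ratio of counts was 151 in MODEL1 (26.8 to 6012) and 48.1 in MODEL2 (8.26 to 1938). It rests on 1 count in CTRL replicate 3: the fitted log2 fold changes of 6.87 and 5.16 became 8.82 and 7.13 without that library, when CTRL is at 0 and the fit depends on the prior count. The models differed by -1.71 ± 0.40 log2 units (edgeR adjusted p = 0.0104). That difference did not pass without MODEL1 replicate 2 (0.104), MODEL2 replicate 1 (0.0647) or MODEL2 replicate 2 (0.0574), nor did the rise of Abcc4 in MODEL2 with age as a covariate (0.368). Ephx1, microsomal epoxide hydrolase, rose in MODEL1 by 2.43 ± 0.57 log2 units (adjusted p = 0.00278, but 0.0754 with age). Fabp1, the liver fatty acid binding protein, fell in MODEL1 by 1.22 ± 0.35 log2 units (adjusted p = 0.0127), a call lost with library totals as the scale (0.0622), with age (0.18), without the libraries rich in Rn45s (0.283) and without MODEL1 replicate 1 (0.0667). Of 8 sulfation and glucuronidation genes 3 were tested and 1 rose in MODEL1 (11.9% of all tested genes), none in MODEL2. Ugt2b34, a glucuronosyltransferase, rose in MODEL1 by 3.57 ± 0.66 log2 units (adjusted p = 0.000331, but 0.11 with age). Between the models Ugt2b34 differed by -1.90 ± 0.55 log2 units, lower in MODEL2 (adjusted p = 0.0387), a call lost under 10 of 19 alternatives, among them leaving out any library of the models but MODEL1 replicate 1. The tested genes of these lists were in part picked by the groups in which they are high. Ugt2b34 held 6 counts over the CTRL libraries and 86 over MODEL1, while Onecut1 held 83 and 5. Sult2a8, with 21, 0 and 8 counts over CTRL, MODEL1 and MODEL2, did not pass the filter. No median over the tested regulators, transport genes or sulfation and glucuronidation genes is therefore given.

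Markers of other liver cells had too few counts to be tested, apart from Eng and Slc4a2. Of 10 cholangiocyte markers Krt7, Epcam, Spp1 and Tff2 were at 0 in all libraries and Krt19 held 1 count, and the list summed to 50.4 to 96.9 CPM in CTRL, 36.9 to 54.7 in MODEL1 and 41.5 to 72.8 in MODEL2. Most of the mean sum was Slc4a2, at a mean of 52.0, 34.6 and 51.7 CPM in the 3 groups. Slc4a2 was tested and passed in no comparison. The 8 Kupffer cell and macrophage markers summed to 23.5 to 49.2 CPM in CTRL, 61.5 to 114 in MODEL1 and 27.7 to 45.6 in MODEL2, with Adgre1 at 0 throughout. Of these Cd68 held 11, 37 and 12 counts over the 3 groups, Csf1r 14, 15 and 13, and Timd4 2, 0 and 2. The remaining markers held at most 9 counts in a group. Endothelial markers summed to 302 to 414, 197 to 369 and 243 to 448 CPM in the 3 groups. Most of this was Eng (endoglin), at 279, 367 and 336 CPM in CTRL, 148, 205 and 209 in MODEL1, and 173, 398 and 338 in MODEL2. Eng, 1 endothelial marker of 8 and the only one tested, was named after its values were seen. It fell in MODEL1 by 0.95 ± 0.28 log2 units (edgeR adjusted p = 0.0164), a call lost with library totals as the scale (0.0738), with age (0.14), without the libraries rich in Rn45s (0.167), and without CTRL replicate 2 (0.0558), MODEL1 replicate 1 (0.0598) or MODEL1 replicate 2 (0.0532). Cdh5, the endothelial cadherin, held 1 count in CTRL, 14 in MODEL1, of which 12 were in replicate 2, and 0 in MODEL2. Summed CPM in the same order of groups ran for stellate and fibroblast markers from 12.1 to 20.2, 13.1 to 27.7 and 4.15 to 8.05, and for lymphocyte markers from 3.36 to 16.4, 9.11 to 12.3 and 0 to 10.4. The part of these cells in the results above was not tested.

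For each tested member the 3 genes whose log2 CPM followed it most closely over the 9 libraries were found by Pearson correlation, as a description, since the libraries share depth and group differences. Such genes were Dcps (r = 0.977), Wwp1 (0.976) and Gpr171 (0.968) for Slc27a5, and Gpr22 (0.953), Rufy3 (0.889) and B3galt2 (0.863) for Slc10a1. For Slco1b2 they were Glul, glutamine synthetase (0.957), Tlk2 (0.953) and 9530082P21Rik (0.943), and for Abcb4 Fth1, ferritin heavy chain (0.946), Gstm3, a glutathione transferase (0.936), and Itm2b (0.93). Gpr171, for example, went from 78.8 CPM in CTRL to 2.19 in MODEL1 and 26.1 in MODEL2, the order also seen for Slc27a5.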

How the data were processed

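The authors deposited raw read counts per gene symbol, 1 column per library, with no normalization. The build was mm10 and the tools named were HTSeq 0.11.2, HISAT2 2.1.0 and Trimmomatic 0.38, per the submitters' processing notes, which do not give their roles, the annotation or the strand setting. RNA was extracted with Trizol, per the labels' protocols. In edgeR 4.0.16 (R 4.3.3), filterByExpr (minimum count 10) left 2639 of 24419 symbols, 9512 symbols having 0 counts throughout, with TMM scaling and a quasi-likelihood F test on all 9 libraries. p-values were two-sided and adjusted by Benjamini-Hochberg over all genes tested (threshold 0.05). The common biological coefficient of variation was 0.259. Depth was 219504 to 325177 counts per library. Untested genes are given as ratios of summed TMM-scaled counts with exact 95% binomial intervals, which cover counting error only (reads copied by PCR are not separate molecules). CPM values are counts over library totals. Gene models were GENCODE M21, promoters RefSeq. The procedure was tested on simulated data. Named genes were the 8 members, up to 3 called genes with the largest changes per other list and comparison, Alb, Rn45s, nearby or overlapping opposite-strand genes and the 3 closest patterns per tested member. Cyp7a1, Eng, Cdh5, Slc4a2, Cd68, Csf1r and Timd4 were added after their values were seen. Members and lists were chosen with earlier results of these data known. Alternatives, including DESeq2 1.42.0, are given in the closing section.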

Additional observations from a re-analysis of the deposited data

How the results depend on the processing

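Under 19 alternatives the number of genes called stayed within 1.5 times that reported (602, 350 and 192), with the exceptions below. These are counts and not shares, as the number of genes and members tested differed between some of the fits. With age as a covariate it was 299 in MODEL1, 71 in MODEL2 and 101 between the models, and the members called were 1, 0 and 1 instead of 2, 1 and 1. Without the 3 libraries rich in Rn45s it was 299, 210 and 62, with 1, 1 and 0 members called. Leaving out 1 library at a time gave 497 to 636, 221 to 379 and 85 to 226 genes, and 1 to 2, 1 to 2 and 0 to 1 members. The MODEL2 count was 221 without CTRL replicate 1, and the count between the models was 88 without MODEL1 replicate 2, 111 without MODEL1 replicate 3, 85 without MODEL2 replicate 1, 116 without MODEL2 replicate 2 and 98 without MODEL2 replicate 3. Age runs with group, from 13 to 17 weeks in CTRL to 19 to 22 weeks in MODEL2, and the 2 cannot be told apart. With age in the fit both estimates and their errors changed: Slc27a5 in MODEL2 went from -2.17 ± 0.31 to -1.71 ± 0.65 log2 units (SE). The other alternatives named here test fewer libraries, and the cause of the changed counts was not tested.

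The replicate number as a block gave 543, 290 and 125 genes and the same member counts. Libraries with the same number did not deviate together (correlations of deviations from group means -0.121 to 0.0103), and in 2 of 18 cases a library's best match in another group had its own number, so the numbers do not pair the libraries. DESeq2 called 581, 331 and 180 genes and 2, 1 and 1 members. No filter gave 619, 302 and 174 genes of 14907 tested, where the fit reported had tested 2639.

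The values that changed direction were not called ones. In MODEL2 against CTRL, with age, Slco1b2 was at -1.01, Onecut1 at 0.45 and Fabp1 at 0.0031 log2 units; leaving out 1 library gave Fabp1 from -0.51 to 0.0031 (without MODEL2 replicate 2) and Eng from -0.49 to 0.031 (without MODEL2 replicate 1). With library totals Slc10a1 was at 0.054 in MODEL1 against CTRL. In MODEL2 against MODEL1, without the libraries rich in Rn45s, Slc10a1 was at 0.026 and Alb at -0.19, and leaving out 1 library gave Alb from -0.085 (without MODEL1 replicate 1) to 0.37. At this depth 4 of the 8 members did not pass the filter. Leaving out single libraries for the ratios of untested genes, and all alternatives for Eng, were added after the data were seen.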

Other observations

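Slc51a, Nr0b2 and Nr1h4 did not pass the filter on low counts, and their values were chosen after they were seen. Slc51a, the alpha subunit that pairs with Slc51b, was at 16.8, 56.5 and 24.6 CPM in the CTRL libraries, at 9.86, 9.11 and 18.5 CPM in those of MODEL1 and at 6.93, 8.29 and 12.1 CPM in those of MODEL2. The ratio of its counts was 0.368 in MODEL1 (0.163 to 0.775) and 0.264 in MODEL2 (0.0965 to 0.629) against CTRL, with intervals that cover counting error only. CTRL replicate 2 held 14 of its 25 CTRL counts, and without that library the ratios were 0.589 (0.232 to 1.499) and 0.423 (0.139 to 1.20). Nr0b2, which encodes SHP, was at 26.9, 16.2 and 8.20 CPM in CTRL, 13.1, 9.11 and 6.15 in MODEL1, and 27.7, 45.6 and 32.2 in MODEL2, with each MODEL2 library above all others in CPM. The gap to CTRL was narrow, 27.7 CPM in MODEL2 replicate 1 against 26.9 CPM in CTRL replicate 1. With the TMM factors of these libraries (0.960 and 0.889) their order reverses, so the lack of overlap with CTRL depends on the scaling. Of the tested genes, among which Nr0b2 was not, 30.8% showed no overlap in MODEL2 against CTRL and 26.3% between the models. The ratio of Nr0b2 in MODEL2 was 1.82 against CTRL (0.922 to 3.76) and 3.81 against MODEL1 (1.68 to 9.70), and without CTRL replicate 1 it was 2.73 against CTRL (1.11 to 8.10). Nr1h4, which encodes FXR, held 9, 3 and 6 counts over the 3 groups, too few to order them.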
